A study of Mus musculus with 16 samples.

Results

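The genes described here are 10 genes of bone morphogenetic protein (Bmp) signalling in the mouse, namely the ligand genes Bmp2, Bmp4, Bmp5, Bmp6, Bmp7 and Gdf6, the antagonist genes Nog and Chrd, and the receptor genes Bmpr1a and Bmpr1b. They were chosen by name for their place in the pathway, and all 10 were found in the annotation (GENCODE vM21) among 21755 protein-coding genes on the chromosomes that the loop list covers. The study profiled chromatin folding in whole cochlea of newborn C57Bl/6 mice, with an age of postnatal day 0 in the sample labels and of P0/1 in the design text of the series. Micro-C, which cuts crosslinked chromatin with micrococcal nuclease and joins ends that lie close together, was done in 4 replicates, of which replicate 4 is called technical in the paper's main text and biological in its supplement, without a treatment or a second genotype. The values come from 1 deposited list of 6798 chromatin loops, called on the 4 replicates merged. Each loop is a pair of 10 kb bins (its anchors) with a false discovery rate (FDR) below 0.1 and the detection scale at which the caller found it. No value per replicate is in the list, so that no spread over animals can be given, and the read depth behind a single loop is unknown.

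Bmp ligands are secreted dimers that bind type I and type II receptor kinases, and the type I receptors then phosphorylate Smad1, Smad5 and Smad9, which enter the nucleus with Smad4 and act on target genes such as those of the Id and Msx families. Secreted antagonists such as noggin and chordin bind the ligands outside the cell and keep them from their receptors. In the inner ear, Bmp signalling takes part in forming the semicircular canals and in patterning the floor of the cochlear duct, where Bmp4 marks the side on which the outer sulcus forms.

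All 10 genes had a near anchor, which means a loop anchor that overlapped the gene or lay within 100 kb of its start site, against 63.7% of all protein-coding genes. With olfactory and vomeronasal receptor genes left out, the share over the remaining 20289 genes was 67.4%. The start site itself lay in an anchor in 4 of the 10 genes (Bmp5, Bmp6, Gdf6 and Nog), against 7.10% of all protein-coding genes. A loop spanned the whole gene in 6 of the 10 (Bmp2, Bmp4, Bmp5, Bmp6, Bmp7 and Bmpr1a), against 28.1%. The ligand genes, which are 6 of the 10, made up most of these counts, with 3 of 6 start sites in an anchor and 5 of 6 genes spanned. The antagonist genes had 1 of 2 start sites in an anchor. Neither antagonist gene was spanned, and neither receptor gene had its start site in an anchor, but these are only 2 genes each. Among other pathway genes, 10 of 13 extracellular modulators were spanned, and 2 of 6 receptor genes had the start site in an anchor. Of 10 other ligand genes, 2 were spanned and 2 had the start site in an anchor. The high spanned share of the 6 ligand genes was therefore not seen in the other ligand genes. No test was made of these shares, because the genes were named with results of these data known.

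The nearest anchor lay at a median of 1.41 kb from the start site over the 10 genes and at 56.6 kb over all protein-coding genes. In 7 of the 10 genes it lay within 10 kb, against 17.7% of all protein-coding genes. The neighbourhoods were poor in genes, with a median of 13.5 other protein-coding start sites within 1 Mb, against 29 over all genes. Gdf6 was the most isolated, with 2 such start sites, and only 0.795% of all genes had fewer. Chrd had the most, with 28. The median length was 45.1 kb, against 17.4 kb over all protein-coding genes, and 6 of the 10 genes were longer than the latter. The part of gene density and gene length in the shares above was not tested.

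**Figure D1:**
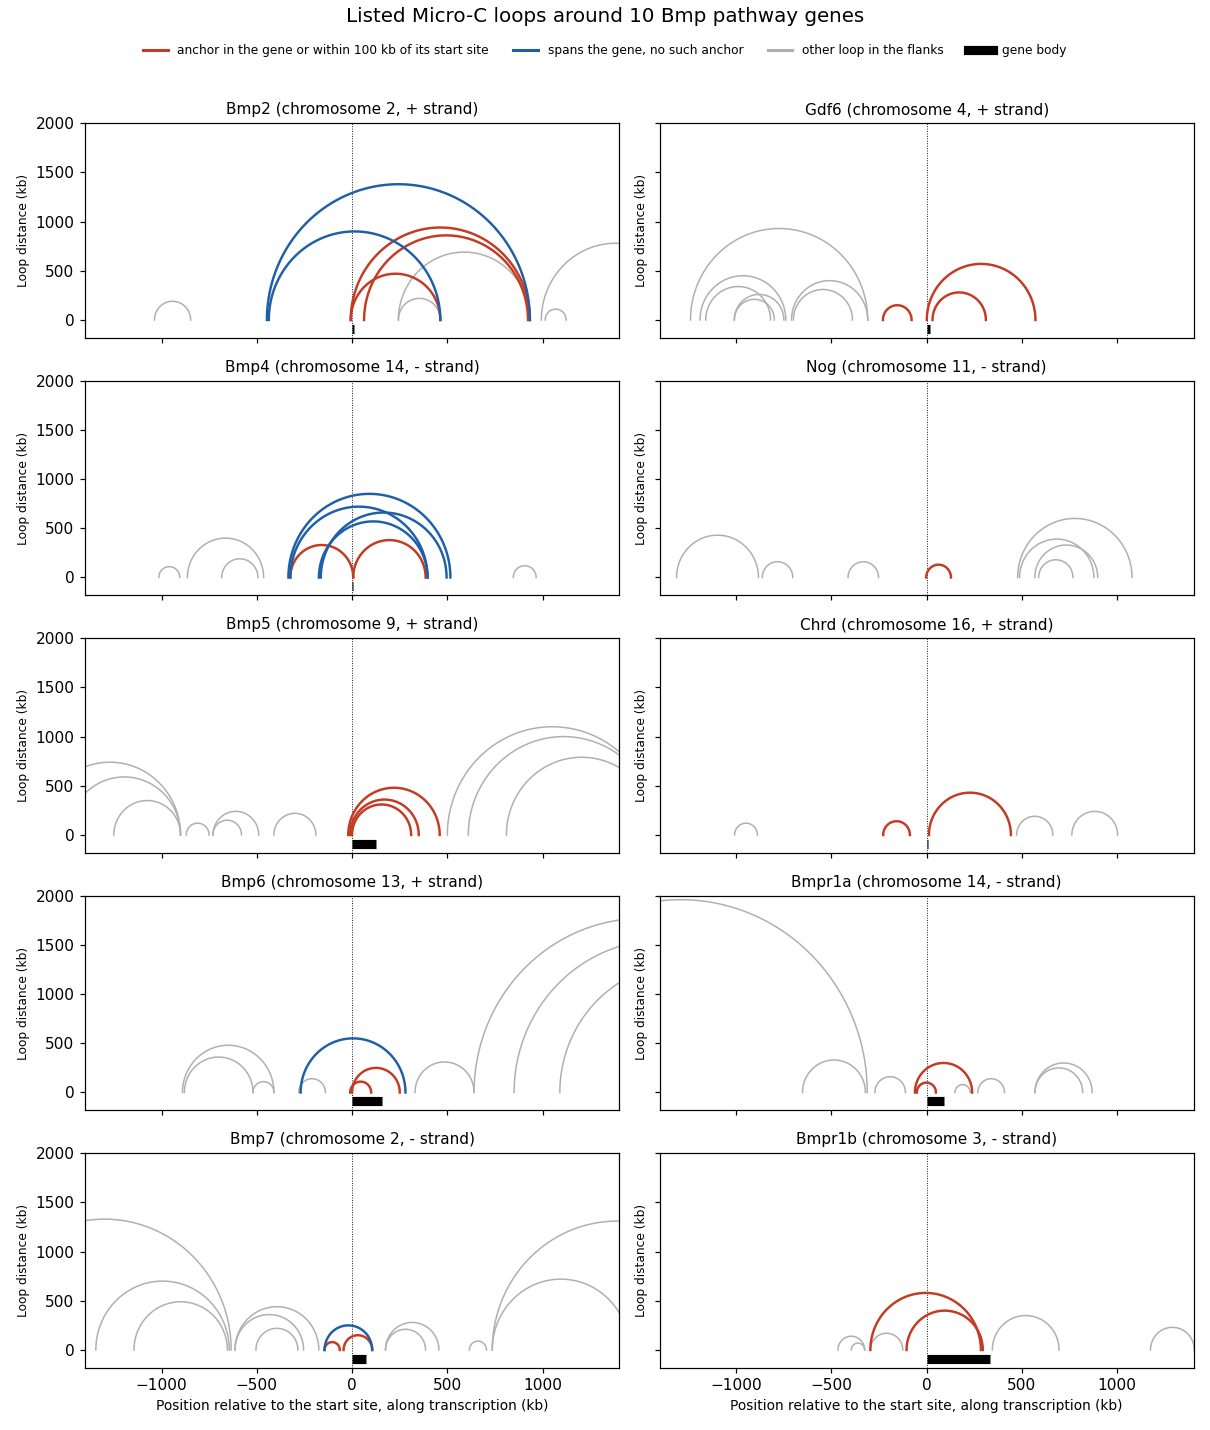
Loops around each of the 10 genes, as arcs between anchor midpoints; the horizontal axis is the position relative to the start site in kb, along the direction of transcription, and the vertical axis is the loop distance in kb. Arcs that leave the panel run on beyond its edge. Red arcs have an anchor in the gene or within 100 kb of its start site, blue arcs span the gene without such an anchor, and most red arcs at Bmp2, Bmp5, Bmp6 and Gdf6 run downstream.

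In all, 22 loops had a near anchor and 14 loops spanned 1 of the genes, which together were 30 distinct loops. The 22 loops with a near anchor had a median distance of 320 kb and a median FDR of 0.0149, whereas the whole list had medians of 280 kb and 0.0113. Of these 22 loops, 17 lay below an FDR of 0.05 (77.3%, and 78.8% in the list), and 13 were found at the smallest detection scale (59.1%, and 71.7% in the list). The 8 loops that spanned a gene without a near anchor had a median distance of 690 kb, which their selection favours, since they must reach around the gene from more than 100 kb beyond its start site. No loop of the list joined a pair of the 53 pathway genes examined, with 1 gene at each end. For the 10 genes this was fixed in advance, since the longest listed loop was 1960 kb. Bmp2 and Bmp7 on chromosome 2, and Bmp4 and Bmpr1a on chromosome 14, lay farther apart than that, and the others shared no chromosome. Most pairs of the 53 genes also lay on different chromosomes, so that the absence says little about contacts between them.

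Bmp2, a ligand that induces bone and cartilage, lay on chromosome 2 of GRCm38 (ENSMUSG00000027358.6, plus strand, 133552159 to 133562885). The anchor nearest to it, from 133540001 to 133550000, ended 2.16 kb before the start site and overlapped no annotated gene. From this bin, a loop of 470 kb reached the bin that begins at 134010001 (FDR 0.000572), and a second of 940 kb reached the bin that begins at 134480001 (FDR 0.00378). Both loops spanned Bmp2 and no other protein-coding gene. A further loop, of 860 kb, began 57.8 kb downstream of the start site, in the bin from 133610001, and ended in the bin from 134470001, next to an end of the loop of 940 kb (FDR 0.0485). Another pair of spanning loops began more than 400 kb upstream, at 133100001 and 133110001, and ended at 134480001 and 134010001, which are the bins that the loops from the gene reached. Their distances were 1380 kb and 900 kb, with FDR values of 0.0193 and 0.0347. None of the bins of these 5 loops overlapped an annotated gene, coding or noncoding, and Bmp2 was the only protein-coding gene inside the spanning loops.

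Bmp4, a ligand long studied in inner ear development, lay on chromosome 14 (ENSMUSG00000021835.15, minus strand, 46383520 to 46390669). The bin from 46380001 to 46390000 covered 90.6% of the gene, with exons 2 to 4 of transcript Bmp4-201, and ended 669 bp short of the start site. It was the anchor of 2 loops that ran in opposite directions. The loop of 380 kb ended downstream of the gene, in the bin from 46000001 (FDR 0.00854), and the loop of 330 kb ended upstream of it, in the bin from 46710001 (FDR 0.00452). The outer end upstream and the neighbour of the outer end downstream were themselves joined by a loop of 720 kb, from 45990001 to 46710001, which spanned Bmp4 with an FDR of 0.000111. Only 7.90% of all listed loops had a lower FDR, as did 2.37% of the 760 loops of like distance (within 20%). The shortest of the 4 loops that spanned Bmp4 was 570 kb long and joined the bin from 45990001 with the bin from 46560001 (FDR 0.00903). Its second bin held exons of Rubie, a noncoding gene known for its expression in the inner ear, which was named after the values were seen. Gm15217, annotated as a protein-coding gene, overlapped the bin at Bmp4 and was the other protein-coding gene inside the spanning loops.

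Bmp5, the ligand that is mutated in short-ear mice, lay on chromosome 9 (ENSMUSG00000032179.7, plus strand, 75775364 to 75900310). It had 3 loops whose first anchors were neighbouring bins at and just before its start site, and all of them ran downstream past the end of the gene. The bin from 75770001 held the start site and exon 1 and was joined to the bin from 76080001, in Hmgcll1, at a distance of 310 kb (FDR 0.0374). The bin from 75760001, which ended 5.36 kb before the start site, was joined to the bin from 76120001 in an intron of the same gene, 360 kb away, with an FDR of 7.94e-05. The bin from 75750001 was joined to the bin from 76230001 in Hcrtr2, which codes for an orexin receptor, at 480 kb (FDR 0.0213). The loop of 360 kb was the shortest to span Bmp5 and held no other protein-coding gene. With neighbouring calls merged (both anchors at most 100 kb apart), it took up the loop at the start site.

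Bmp6, a ligand known for its part in the control of iron, lay on chromosome 13 (ENSMUSG00000039004.6, plus strand, 38345107 to 38500302). Its start site and exon 1 lay in the bin from 38340001, which was joined to the bin from 38590001 in Bloc1s5, at a distance of 250 kb (FDR 0.00166). Of all listed loops, 26.3% had a lower FDR. The bin next to it, from 38330001, was joined over 110 kb to the bin from 38440001 inside Bmp6, between exons 1 and 2 (FDR 0.0351). The 1 spanning loop, of 550 kb, ran from 38070001 to 38620001 (FDR 0.0264) and had its second end in Bloc1s5 as well. It held Dsp, Snrnp48 and Txndc5 beside Bmp6.

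Bmp7, a ligand needed for kidney and eye development, lay on chromosome 2 (ENSMUSG00000008999.7, minus strand, 172868012 to 172940321). No anchor overlapped it, and the nearest lay 39.7 kb upstream of its start site, the farthest among the 6 ligand genes. The loop from 172830001 to 172980001 enclosed Bmp7 and no other protein-coding gene, at 150 kb, and its FDR of 1.26e-05 ranked 129 in the list. Among the 1340 loops of like distance, 2.76% had a lower FDR. Its upstream end lay in Spo11, a gene of meiotic recombination. A loop of 80 kb joined the bin that holds the start site of Rae1, from 173000001, to the bin from 173080001, and left Bmp7 outside (FDR 0.00250). A loop of 250 kb joined the outer ends of these, 172830001 and 173080001, with an FDR of 0.0232.

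Gdf6, a ligand of joint and skull formation, lay on chromosome 4 (ENSMUSG00000051279.2, plus strand, 9844372 to 9862345). The bin from 9840001 held its start site and was joined to the bin from 10410001, at a distance of 570 kb downstream (FDR 0.0529). A second loop, of 280 kb, began 25.6 kb downstream of the start site, in the bin from 9870001, and ended in the bin from 10150001 (FDR 0.0872). No annotated gene lay in either of the downstream ends, and no protein-coding gene lay inside either loop. Upstream, a loop of 150 kb joined the bin from 9610001, in Asph, to the bin from 9760001, which lay 74.4 kb from the start site (FDR 0.000864). This was the 1 loop near Gdf6 that lay below an FDR of 0.05.

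Nog, which codes for the antagonist noggin, lay on chromosome 11 (ENSMUSG00000048616.4, minus strand, 89300638 to 89302332). Its 1 exon lay wholly in the bin from 89300001, which was joined to the bin from 89170001 at a distance of 130 kb, on the downstream side of the gene (FDR 0.0560). This was the 1 loop with a near anchor at Nog, 81.9% of all listed loops had a lower FDR, and no protein-coding gene lay inside it or in its other bin. Chrd, which codes for the antagonist chordin, lay on chromosome 16 (ENSMUSG00000006958.14, plus strand, 20733127 to 20742384). The last 4 exons of Chrd-201, from 20 to 23, lay in the bin from 20740001, which began 6.87 kb downstream of the start site. It was joined to the bin from 21170001 over 430 kb (FDR 0.0652), and Teddm3 was the 1 protein-coding gene inside this loop. A second loop, of 140 kb, lay upstream and joined bins in Eif2b5 and Ece2, with its nearer end 83.1 kb from the start site of Chrd (FDR 0.0322).

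Bmpr1a, a type I receptor gene, lay on chromosome 14 (ENSMUSG00000021796.15, minus strand, 34410734 to 34503341). An intron of the gene, between exons 2 and 3 of Bmpr1a-201, held the bin from 34450001, which was joined over 100 kb to the bin from 34550001 in Ldb3, a gene of a muscle PDZ-LIM protein (FDR 0.00364). The start site lay between these bins, 43.3 kb from the bin in Bmpr1a and 46.7 kb from the bin in Ldb3. The neighbouring bin in Ldb3, from 34560001, was joined to the bin from 34260001 in Shld2 by a loop of 300 kb that spanned 6 protein-coding genes, Bmpr1a among them (FDR 0.0651). Bmpr1b, the other type I receptor gene, lay on chromosome 3 (ENSMUSG00000052430.15, minus strand, 141837136 to 142169425) and at 332290 bp was the longest of the 10 genes. Neighbouring bins inside it, from 141870001 with exons 3 and 4 of Bmpr1b-201 and from 141880001 with exon 2, were anchors of separate loops. The loop of 400 kb joined the first to the bin from 142270001 in Pdlim5, another gene of the PDZ-LIM family. Its FDR of 5.97e-06 was the lowest among the 30 loops and ranked 72 in the list. The loop of 580 kb joined the second to the bin from 142460001, beyond Pdlim5 (FDR 0.0484). The start site of Bmpr1b lay between the anchors of both loops and was 100.6 kb from the nearest, just outside the limit of 100 kb, so that the gene was counted through the anchors inside it. RefSeq places 3 starts of Bmpr1b 187, 238 and 238 kb inside the gene, from which the nearest anchor lay at 92.3, 41.6 and 41.4 kb. Without the gene body, 9 of the 10 genes had a near anchor, against 62.7% of all protein-coding genes.

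Where an anchor lay within 10 kb of the start site, the other end of the loop mostly lay on the downstream side. This held for 10 of 11 loops, over 7 of the genes, and the exception was the loop of Bmp4 that ran upstream. Over all protein-coding genes with such an anchor, 50.5% of 5031 pairs of a gene and a loop had the other end downstream. In the other pathway genes described further on it was 10 of 29 (34.5%). This count was chosen after the data were seen and was not tested. The farther end of a loop with a near anchor held a protein-coding start site in 0 of the 22 loops, against 14.1% of 28514 pairs of a gene and such a loop over all protein-coding genes. Over the 42 distinct bins of these loops, 5 held such a start site (11.9%, and 11.9% over all 11828 anchor bins of the list). These were the start sites of Bmp5, Bmp6, Gdf6, Nog and Rae1. All but that of Rae1 belong to the 10 genes, whose own bins the rule for a near anchor takes in. The likeness of the 2 shares therefore says nothing about the genes. Both bins were free of protein-coding genes in 11 of the 30 loops (36.7%), against 18.3% of the whole list. Bmp2, with 5 of 5 loops, and Bmp4, with 4 of 6, made up most of these, and at the other 8 genes it was 2 of 19 loops (10.5%).

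The number of start sites in anchors depended on the settings. At an FDR below 0.05, 2 genes had the start site in an anchor (Bmp5 and Bmp6), against 5.74% of all protein-coding genes, and below 0.01 only Bmp6 did, against 3.45%. All of these loops were found at larger detection scales, and at the smallest scale the number was 0, against 5.46%. With the starts of all annotated transcripts it was 5, against 12.0%, because a shorter transcript of Bmp4, Bmp4-204, starts in the bin at that gene.

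In the flanks, 1 Mb to each side of the genes, 97 distinct loops had an anchor. The number per gene ran from 5 at Chrd to 14 at Bmp7, with a median of 10, whereas the median over all protein-coding genes was 7. Chrd had more flank loops than 29.9% of all genes, and Bmp7 more than 93.7%. Around Bmp2 the sides differed, with 1 loop wholly upstream of the gene and 5 wholly downstream. Around Gdf6 it was the reverse, with 8 upstream and 1 downstream. Around the antagonist genes the sides were nearly even, with 3 upstream and 4 downstream at Nog and 2 on each side at Chrd. The lowest FDR in any of these windows was 1.13e-06, at a loop of 170 kb upstream of Bmpr1b, from 142290001 to 142460001, which ranked 17 in the list and shared its second bin with the longer loop of Bmpr1b. At Bmp7 the lowest was 1.18e-06, at a loop of 360 kb from 173190001 to 173550001, which ranked 18. Both were named after their values were seen.

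The CTCF core consensus, a string of 14 bases bound by the insulator protein CTCF, was searched in the bins on both strands with at most 1 mismatch. A match was found in 24 of the 52 distinct anchor bins of the 30 loops (46.2%). The share was 48.4% over all anchor bins of the list and 21.4% over all 10 kb bins of the chromosomes. In 9 loops both bins had a best match on 1 strand only, and 7 of these pointed at each other (convergent), 1 pair pointed apart and 1 pair pointed the same way. In the whole list, 68.3% of 1502 such loops were convergent. The 7 convergent loops were at Bmp2 (1 of its 5 loops), Bmp4 (2 of 6), Bmp7 (2 of 3), Gdf6 (1 of 3) and Chrd (1 of 2). The pair that pointed apart was at Bmp4, in a spanning loop of 660 kb (FDR 0.0827), and the pair that pointed the same way was at Bmp7, in the loop of 80 kb. None of the loops at Bmp5, Bmp6, Nog, Bmpr1a or Bmpr1b could be scored, because a bin held no match.

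The following matches, read from GRCm38.p6, are shown for both convergent loops at Bmp7, for the loop of 570 kb at Bmp4, for the bin at Bmp4 itself, and for the bins that hold the start sites of Nog and Gdf6. Each is written 5′ to 3′ on the strand of the match, with the 14 bases of the match in capitals and 8 bases on each side. In the upstream end of the loop of 150 kb at Bmp7, 1 of the 14 bases is a mismatch. The same holds for the downstream end of the loop of 570 kb at Bmp4, the bin at Bmp4 itself and the bin at Gdf6. The other matches shown have no mismatch.
Bmp7, downstream end of the loops of 150 and 250 kb (chr2:172831264-172831293, plus strand): ccgttcatCCAGCAGAGGGCAGcagagagc
Bmp7, upstream end of the loop of 150 kb (chr2:172980133-172980162, minus strand): cccggtcaCCACCAGGGAGCACtagggagc
Bmp7, upstream end of the loop of 250 kb (chr2:173089648-173089677, minus strand): tctagtgcCCACCAGAGGGCAGgcgtcaac
Bmp4, downstream end of the loop of 570 kb (chr14:45990604-45990633, plus strand): tgttttgcCCACCCGAGGGCAGagttaagt
Bmp4, upstream end of the loop of 570 kb, in the bin with Rubie (chr14:46565171-46565200, minus strand): tcctataaCCAGCAGGTGGCACtgtggata
Bmp4, bin at the gene (chr14:46383301-46383330, plus strand): gcacgtgtCCTCCAGATGGCAGagggtgct
Nog, bin with the start site (chr11:89303625-89303654, minus strand): acaaagggCCAGCAGAGGGCGCgccgcccc
Gdf6, bin with the start site (chr4:9841318-9841347, plus strand): ccaagtgtCCACAAGGGGGCAGaagatacc
The match at Nog had no mismatch, lay 1314 bp upstream of the start site and pointed towards the other end of the loop. The match at Gdf6 lay 3046 bp upstream and pointed the same way as the gene, towards the other end of its loop of 570 kb, where no match was found. The match in the bin at Bmp4 lay downstream of the gene, 7.35 kb from the start site. A match is a description of the letters and not a measurement of CTCF binding.

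Promoter sequences from RefSeq (GRCm38.p6) were at hand for 6 of the 10 genes (Bmp4, Bmp5, Bmp6, Chrd, Bmpr1a and Bmpr1b), and none of them held a match of the CTCF consensus. Over all 32817 promoters of that table, 2.28% held one. The promoters of Bmp5 and Bmp6 are shown, since their start sites lay in anchors, from 250 bases before the RefSeq start site to the 50 from it on, with these 50 in capitals.
Bmp5 promoter (chr9:75775115-75775414, plus strand): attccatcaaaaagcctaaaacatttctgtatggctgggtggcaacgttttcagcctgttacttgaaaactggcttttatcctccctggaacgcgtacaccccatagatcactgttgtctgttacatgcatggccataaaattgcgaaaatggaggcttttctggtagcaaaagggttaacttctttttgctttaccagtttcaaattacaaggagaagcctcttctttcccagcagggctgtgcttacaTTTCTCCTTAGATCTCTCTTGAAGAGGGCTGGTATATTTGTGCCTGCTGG
Bmp6 promoter (chr13:38345466-38345765, plus strand): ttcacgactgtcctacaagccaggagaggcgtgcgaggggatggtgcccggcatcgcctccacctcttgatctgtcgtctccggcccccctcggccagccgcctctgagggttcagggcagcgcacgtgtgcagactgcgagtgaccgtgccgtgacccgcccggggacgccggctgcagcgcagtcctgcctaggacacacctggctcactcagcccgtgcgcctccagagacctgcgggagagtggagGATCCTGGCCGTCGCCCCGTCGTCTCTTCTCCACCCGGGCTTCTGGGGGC
The promoter of Bmp5 was poor in CG pairs, with 4, and that of Bmp6 rich, with 27, while the median over all promoters of the table was 7. Their GC contents were 43.3% and 69.3%, around a median of 52.7%. The RefSeq start site of Bmp6 lay 609 bp downstream of the GENCODE start site, in the same anchor bin.

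Of 43 other genes of the pathway, 37 had a near anchor (86.0%), 10 had the start site in an anchor (23.3%) and 23 were spanned by a loop (53.5%). The shares over all protein-coding genes were 63.7%, 7.10% and 28.1%. The 43 genes had a median of 10 flank loops, as did the 10 genes above, against 7 over all protein-coding genes. All 6 Smad genes and all 6 target genes examined had a near anchor, against 63.7% of all protein-coding genes. So did 12 of 13 other extracellular modulators and 7 of 10 other ligand genes (70.0%, near the share over all genes). It was 5 of 6 for the other receptor genes and 1 of 2 for the genes of chordin-cleaving proteases. The 6 genes without one were Bmp8a, Bmp8b, Bmp15, Bmpr2, Kcp and Bmp1, the last with its nearest anchor 100.2 kb away, just outside the limit. Bmp15, an oocyte factor on chromosome X, was the farthest, with its nearest anchor 4299 kb away.

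**Figure D2:**
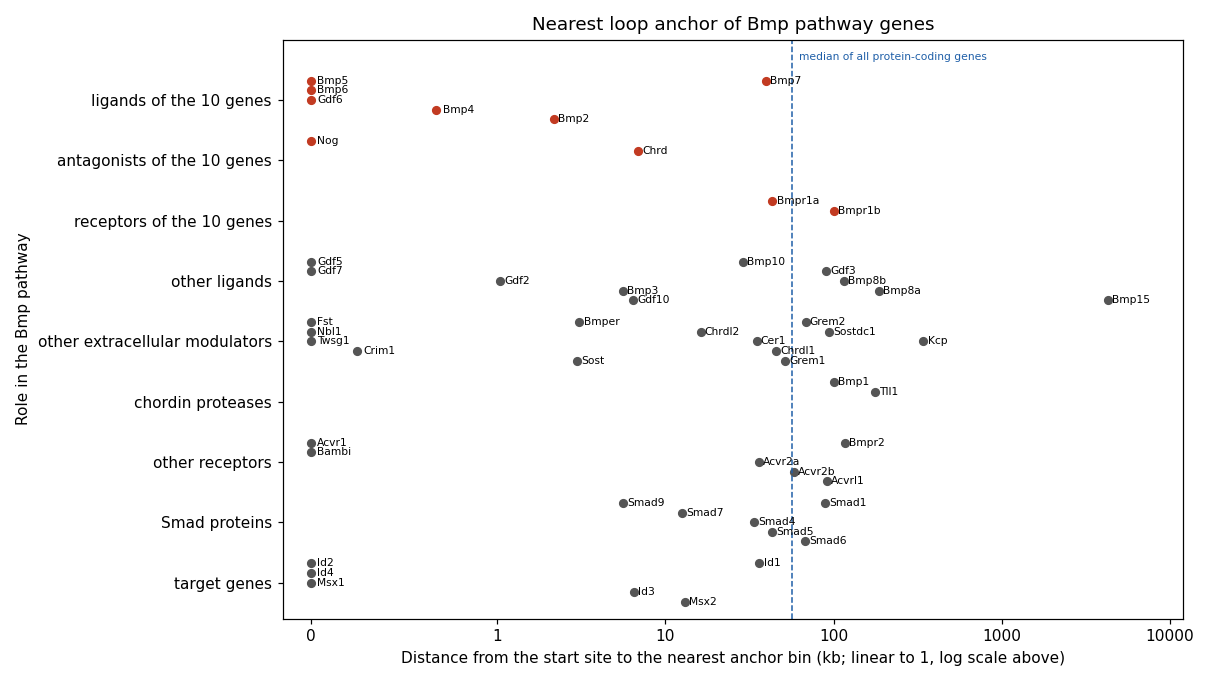
Distance in kb from the start site to the nearest anchor bin (horizontal axis, linear to 1 kb and logarithmic above) for the 10 genes (red) and 43 other pathway genes (grey), by role on the vertical axis. The dashed line is the median of all protein-coding genes, 56.6 kb, and 9 of the 10 genes lie to its left.

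Among the other ligand genes, Gdf5 and Gdf7 had their start sites in anchors. The loop of Gdf5, a gene of joint formation, reached 100 kb downstream into Uqcc1 (FDR 0.000774), and that of Gdf7 reached 240 kb downstream to a bin without a protein-coding gene (FDR 0.000628). An anchor ended 1039 bp before the start site of Gdf2, and its loop with the lower FDR was 250 kb long (FDR 6.06e-05). Among the modulators, the start sites of Fst, Nbl1 and Twsg1, which code for secreted proteins that bind Bmp or activin ligands, lay in anchors. Fst was joined to Arl15 over 570 kb (FDR 0.00585), Nbl1 to Capzb over 130 kb (FDR 0.00211) and Twsg1 to Ndufv2 over 140 kb (FDR 0.0341). Crim1, Sost and Bmper had an anchor 248 bp, 2986 bp and 3076 bp from the start site. The FDR of the loop nearest to the start site was 0.0589 at Crim1 and 0.0746 at Sost. It was 0.00289 for the lower of 2 at Bmper.

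Among the receptor genes, the start sites of Acvr1, a type I receptor, and Bambi, a pseudoreceptor without a kinase domain, lay in anchors. The loop of Acvr1 stayed inside the gene, at 80 kb (FDR 0.0556), and that of Bambi reached 670 kb to Lyzl1 (FDR 0.0973). Among the Smad genes no start site lay in an anchor, and Smad9 was the nearest at 5582 bp. Its loop reached the bin with the start site of Spg20 over 370 kb (FDR 0.0706). Among the target genes, Id2, Id4 and Msx1 had their start sites in anchors. Id2, an inhibitor of basic helix-loop-helix factors, was joined from 1 bin to 3 bins upstream at 320, 980 and 1200 kb, and the loop of 980 kb had the lowest FDR of these, 0.00158. Id4 was joined to a bin 340 kb upstream (FDR 0.0918) and Msx1 to Stx18 over 260 kb (FDR 0.00956). With the 10 genes added, the start site lay in an anchor in 14 of 53 pathway genes (26.4%), against 7.10% of all protein-coding genes.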

How the data were processed

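The authors aligned Micro-C reads of 4 cochlea replicates to mm10 with BWA-MEM, removed duplicates with pairtools, made contact maps with Juicer, pooled the replicates and ran Mustache on them to find loops; versions are not given in the sources used here. The FDR, a q-value of each loop, and the detection scale, a score, were deposited as the authors' caller gave them. Loop calls in smaller bins, ATAC-seq and CUT&RUN were not analysed here.

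Loops were intersected with GENCODE vM21 in Python 3.11.15 with numpy 2.4.6 and pandas 2.3.3, and figures were drawn with matplotlib 3.10.9. All bins ended within the chromosome lengths of GRCm38.p6. The start site is the 5′ end of the gene. Loop distance runs between bin starts. A spanned gene lies wholly between the inner ends of the anchors. A flank loop has at least 1 anchor within 1 Mb of the gene. The CTCF core consensus was written from general knowledge, the best match of a bin set its orientation, and bins with over 10% unknown bases were left out of the share over all bins. The counting was tested on simulated data.

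The genes, the lists and the rules were chosen with earlier results of these data known. The text names all 10 genes, the other pathway genes with the start site in an anchor and the 5 nearest beside them. For the 10 genes it gives all loops with a near anchor and the shortest loop that spans each gene. Protein-coding genes at the far ends are named for the loops described. At Gdf2 and Bmper only the loop with the lower FDR is described. Further spanning loops at Bmp2, Bmp4 and Bmp7 were added after their values were seen. Alternatives were stricter FDR limits, 1 detection scale, merged calls, other distance limits and other definitions of start sites, spanning, flanks and motif matches.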

Additional observations from a re-analysis of the deposited data

How the results depend on the processing

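Of 46 recomputed counts, 34 stayed within 1.5 times the reported one. All 10 genes had a near anchor at limits of 50 and 200 kb, with merged calls and with all transcript starts, against 50.3%, 75.8%, 62.6% and 64.8% of all protein-coding genes. Nog lost it at an FDR below 0.05 and at the smallest detection scale, and Nog and Chrd lost it below 0.01, which left 9, 9 and 8 genes against 58.1%, 54.9% and 42.5% of all protein-coding genes. Leaving out the gene body, an alternative chosen after seeing the data, left 9 genes.

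At an FDR below 0.05, 2 genes in place of 4 had the start site in an anchor (5.74% of all protein-coding genes). Below 0.01 it was 1 (3.45%), loops with a near anchor fell from 22 to 11, spanning loops from 14 to 7 and flank loops from 97 to 44. At the smallest detection scale these were 0 genes (5.46%), 13 loops with a near anchor and 9 spanning loops. Fewer loops enter under each of these settings by construction. Widening bins by 10 kb on each side put 7 start sites in an anchor (17.7%). Counting a start site between the outer ends as spanned gave 23 loops and 9 genes (39.1% of all protein-coding genes). Spanned genes numbered 5 at an FDR below 0.05 (23.8%), 4 below 0.01 (15.1%), 5 at the smallest detection scale (23.1%) and 6 with merged calls (26.5%). Bins with a CTCF match numbered 5 with no mismatch (9.62%, against 13.6% of all anchor bins and 2.46% of all bins) and 50 with at most 2 (96.2%, against 93.7% and 81.9%), in place of 24.

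No paired analysis was possible because the 4 replicates entered the caller together and no loop has a value of its own in each. The shortest loop of the list spanned 60 kb, so that shorter contacts could not be described, and the absence of a listed loop does not show the absence of a contact.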
